A study of Mus musculus with 6 samples.

Results

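The tumor suppressor p53, encoded in the mouse by *Trp53*, and 9 of its direct target genes were examined in bulk RNA-seq of corneal epithelial cells. The genes were chosen by symbol: *Trp53*, *Cdkn1a*, *Mdm2*, *Ccng1*, *Bbc3*, *Pmaip1*, *Trp53inp1*, *Zmat3*, *Perp* and *Trp53i11*. All 10 were among the 17784 genes of the expression table, and all 10 were among the 12999 that had enough counts to be tested. The 3 *Prrx1-CreERT;Ptch1 f/f* samples, called Ptch1Prrx1 here, were compared with 3 *Ptch1 f/f* control samples. The floxed line had been backcrossed to C57BL/6, and the labels give an age of 10 weeks, 3 doses of tamoxifen and an interval of 2 months for both groups. The knock-in *Prrx1-CreERT* allele drives recombination in keratocytes, corneal endothelium and other ocular mesenchyme, so the deletion of the Hedgehog receptor *Ptch1* was directed at cells beneath the epithelium. According to the labels, the epithelial cells were separated from the cornea with EDTA. The sources describe the samples as biological replicates and do not say whether animals were pooled.

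p53 is a transcription factor that is held at a low level by the ubiquitin ligase Mdm2, and most of its control lies in the stability and modification of the protein rather than in the amount of its mRNA. Once stabilized by DNA damage or other stress, it binds pairs of a short element in its target genes. One group of targets, led by *Cdkn1a*, which encodes the cyclin-dependent kinase inhibitor p21, stops the cell cycle, and another feeds back on p53 itself. Others kill cells: *Bbc3* encodes Puma and *Pmaip1* encodes Noxa, both BH3-only proteins that bind and neutralize anti-apoptotic members of the BCL2 family at mitochondria. These genes also answer to other factors, and an mRNA level does not measure p53 activity.

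In Ptch1Prrx1 epithelial cells the death genes *Pmaip1* and *Bbc3* rose by more than the arrest gene *Cdkn1a*. *Pmaip1* mRNA was 18.03-fold higher and *Bbc3* mRNA 3.66-fold higher, from control levels below 1 TPM (transcript abundance scaled for gene length and depth). *Cdkn1a*, already abundant in control epithelium, was 1.24-fold higher and did not pass the test. Among the feedback genes *Mdm2* rose and *Ccng1* fell, by 1.27-fold and 1.19-fold. Of the remaining members, *Trp53i11* rose 1.95-fold and *Trp53inp1* fell, while *Trp53*, *Perp* and *Zmat3* did not pass the test.

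The starts of these genes differed in whether a match to the p53 consensus element lay within a short window around them. The stretches before the starts of 4 genes are printed so that the changes in mRNA can be read beside the sequence. RefSeq windows of 300 bases, from 250 before to 50 after an annotated start, matched 6 of the 10 members (*Trp53*, *Cdkn1a*, *Mdm2*, *Ccng1*, *Bbc3* and *Trp53i11*) with 9 starts. *Pmaip1*, *Trp53inp1*, *Zmat3* and *Perp* had no entry. The search used the consensus p53 decamer, an element of 10 bases that reads the same on both strands, and abutting pairs of it, 20 bases long, with at most 1 mismatch. Below are the 250 bases before the first listed start of *Cdkn1a* (chr17:29090729-29090978, plus strand), *Ccng1* (chr11:40755287-40755536, minus strand), *Mdm2* (chr10:117710759-117711008, minus strand) and *Bbc3* (chr7:16309333-16309582, plus strand), in the RefSeq build GRCm38.p6, with decamers and pairs in capitals.
Cdkn1a: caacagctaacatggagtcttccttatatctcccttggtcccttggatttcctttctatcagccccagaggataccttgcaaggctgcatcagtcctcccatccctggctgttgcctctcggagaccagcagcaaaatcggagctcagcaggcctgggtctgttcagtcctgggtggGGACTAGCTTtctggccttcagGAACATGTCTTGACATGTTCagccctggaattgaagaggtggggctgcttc
Ccng1: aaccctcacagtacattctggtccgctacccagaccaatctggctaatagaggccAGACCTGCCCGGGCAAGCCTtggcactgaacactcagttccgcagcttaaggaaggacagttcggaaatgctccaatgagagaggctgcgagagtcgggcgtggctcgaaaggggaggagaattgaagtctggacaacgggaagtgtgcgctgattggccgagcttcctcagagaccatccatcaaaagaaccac
Mdm2: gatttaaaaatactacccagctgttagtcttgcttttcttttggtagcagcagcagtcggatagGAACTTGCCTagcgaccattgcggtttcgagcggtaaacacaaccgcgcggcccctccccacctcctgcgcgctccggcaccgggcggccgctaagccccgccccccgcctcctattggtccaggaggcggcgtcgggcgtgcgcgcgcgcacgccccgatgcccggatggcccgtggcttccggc
Bbc3: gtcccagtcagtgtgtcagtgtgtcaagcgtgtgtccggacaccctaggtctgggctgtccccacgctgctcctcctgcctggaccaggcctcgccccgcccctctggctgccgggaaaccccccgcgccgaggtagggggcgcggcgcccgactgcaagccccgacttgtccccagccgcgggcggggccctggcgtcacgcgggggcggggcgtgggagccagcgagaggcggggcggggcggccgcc

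The arrest gene *Cdkn1a* and the feedback gene *Ccng1* each held an abutting pair with 1 mismatch. The pair lay 51 bases before this *Cdkn1a* start (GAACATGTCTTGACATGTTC) and 195 bases before the *Ccng1* start (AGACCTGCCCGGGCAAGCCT). Pairs of this kind were found at 0.107% of the 27025 genes with a window. *Cdkn1a* held a further decamer 73 bases before the same start, and *Mdm2* and *Trp53* held 1 decamer each, GAACTTGCCT at 186 bases and GGACTTGCCC at 75 bases before the start. A decamer was found at 9.55% of genes. None of the 3 *Bbc3* starts, the second *Cdkn1a* start and the *Trp53i11* start held a decamer or a pair within the window. The second *Cdkn1a* start lies downstream of the first, with its 250 bases at chr17:29093519-29093768. The *Cdkn1a* pair therefore lies farther upstream of that start, outside its window. A match is a likeness in letters and no measure of binding, and p53 elements of several target genes lie in introns or far upstream, beyond these windows.

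The libraries held 20296741 to 20625813 expected counts, a range of 1.62%, so depth did not separate the groups, and 3 counts in a library corresponded to 0.145 to 0.148 CPM (counts scaled to library size). These limits cover counting error only. *Ptch1* itself was at 7.31, 9.70 and 10.2 TPM in control replicates 1, 2 and 3 and at 5.28, 6.33 and 7.01 TPM in Ptch1Prrx1 replicates 1, 2 and 3 (log2 fold change -0.51, adjusted p = 0.0401 with edgeR). It passed under 8 of 15 alternatives, and missed when control replicate 2 or 3 or any 1 Ptch1Prrx1 sample was left out. All 9 corneal epithelial markers were present, with *Krt12* at 37107 to 49487 TPM in every sample. The 6 listed keratocyte markers summed to 7.77 to 33.1 TPM in control and 6.21 to 8.99 TPM in Ptch1Prrx1 samples. The highest sum was that of control replicate 3, where *Col1a2* alone was at 26.0 TPM. *Kera* was at 0.06, 0 and 0.07 TPM in control replicates 1, 2 and 3 and at 0 TPM in all Ptch1Prrx1 samples. *Dcn* was at 0.06 to 0.36 TPM in control and 0.54 to 1.35 TPM in Ptch1Prrx1 samples. The 6 immune markers summed to 12.6 to 17.3 TPM in control and 10.6 to 24.3 TPM in Ptch1Prrx1 samples. Without Ptch1Prrx1 replicate 1 the immune sum was 10.6 to 13.4 TPM in Ptch1Prrx1 samples. *Krt14*, a keratin of basal and progenitor cells, rose (log2 fold change 2.81, adjusted p = 0.00769 with edgeR, and 2.33 without Ptch1Prrx1 replicate 1). The conjunctival keratins *Krt4*, *Krt13* and *Krt19* summed to 1384 to 2309 TPM in control and 2174 to 4667 TPM in Ptch1Prrx1 samples. Without Ptch1Prrx1 replicate 1 the latter was 2174 to 2887 TPM, and none of the 3 keratins passed the test. Their part in the results below was not tested. Ptch1Prrx1 replicate 1 stood apart on the first principal component, at 44.7 against 15.2 and 15.9 for the other Ptch1Prrx1 samples and -29.0 to -23.0 for the control samples, and for the members and lists where it was the highest by far, values without it are given. In bulk samples, fewer cells of a type and less RNA per cell cannot be told apart.

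A gene passed the test at an adjusted p of at most 0.05 in edgeR's quasi-likelihood test, and was called when its fold change was also at least 2. Among all tested genes, 14.0% passed, 7.61% higher and 6.41% lower in Ptch1Prrx1 cells, and 3.23% were called, 2.34% higher and 0.892% lower. Of the 10 members, 6 passed, 4 higher and 2 lower, and 2 were called, both higher. The 2 called were *Pmaip1* and *Bbc3*, which passed the count filter only through their Ptch1Prrx1 samples. With at least 10 counts required in every sample, neither was tested and 0 members were called. The members were chosen with earlier results of these data known. The median log2 fold change was 0.27 over the members and -0.01 over all tested genes. The groups did not overlap in normalized counts for 7 members, 5 above and 2 below control, against 39.9% of all tested genes, 19.7% above and 20.3% below. At an unadjusted p under 0.05 there were 8 members, against 33.5% of all tested genes. Without control replicate 2 only 93 of 13219 genes passed in the whole table, and 1 member, *Trp53i11*, was among them. Without control replicates 1 or 3 the number of members that passed was 3 and 2.

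**Figure D1:**
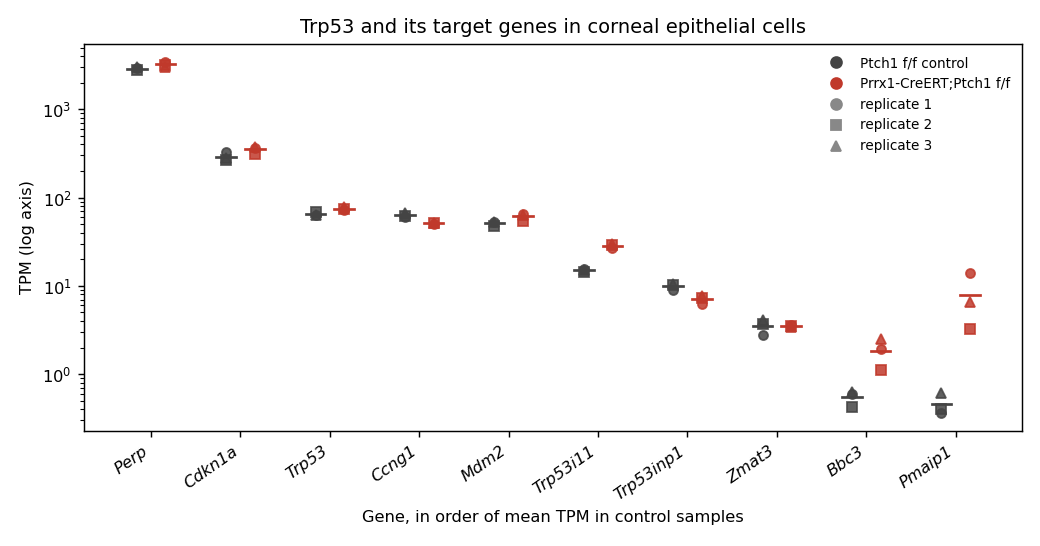
TPM (log axis) of *Trp53* and its 9 target genes in the 3 control (grey) and 3 Ptch1Prrx1 (red) samples, with a symbol for each replicate and a bar at each group's mean. The levels span from 0.36 TPM for *Pmaip1* in control replicate 1 to 3467 TPM for *Perp* in Ptch1Prrx1 replicate 1, and the groups lie farthest apart for *Pmaip1* and *Bbc3*.

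In control epithelium the death genes were the lowest members. In TPM, *Perp* was the highest member at 2891 ± 97.2 (SD, n = 3), at the 99.85 percentile of all listed genes, followed by *Cdkn1a* at 291 ± 32.3 (SD, n = 3). *Trp53* (65.1), *Ccng1* (63.2) and *Mdm2* (51.0) came next, and the ranges of the first pair of these overlapped. *Trp53i11* (15.0), *Trp53inp1* (9.92) and *Zmat3* (3.53) followed without overlap. *Bbc3* at 0.547 and *Pmaip1* at 0.457 mean TPM were the lowest members, with overlapping ranges, at the 29.5 and 28.4 percentiles of listed genes. In Ptch1Prrx1 cells *Pmaip1* moved from last to 7th place, where its range overlapped that of *Trp53inp1*, and *Mdm2* changed places with *Ccng1*.

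*Trp53* mRNA was slightly higher in Ptch1Prrx1 cells and narrowly missed the test. It stood at 63.9, 68.1 and 63.3 TPM in control replicates 1, 2 and 3 and at 72.2, 73.3 and 77.3 TPM in Ptch1Prrx1 replicates 1, 2 and 3. The groups did not overlap, but the lowest Ptch1Prrx1 sample was only 1.06 times the highest control. Its log2 fold change was 0.23 (SE 0.06, adjusted p = 0.0552 with edgeR), with an unadjusted 95% interval of 0.08 to 0.38. The related epithelial factor *Trp63*, which maintains the basal layer, was at 177 ± 18.6 TPM in control and 175 ± 15.8 TPM in Ptch1Prrx1 samples (SD, n = 3), a log2 fold change of -0.03 (SE 0.08, adjusted p = 0.838 with edgeR). *Trp73*, the remaining family member, was at 1.96 and 2.52 TPM and did not pass either.

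*Pmaip1*, the Noxa gene, had the highest fold change of the 10 members. It had 9.29, 10.0 and 15.2 expected counts in control replicates 1, 2 and 3 and 356, 79.3 and 160 in Ptch1Prrx1 replicates 1, 2 and 3. As TPM, the controls were at 0.36, 0.40 and 0.61 and the Ptch1Prrx1 samples at 13.9, 3.22 and 6.60. Every Ptch1Prrx1 sample was at least 5.28 times the highest control in TPM, although the Ptch1Prrx1 samples themselves spanned 4.32-fold, with replicate 1 the highest. The log2 fold change was 4.17 (SE 0.62, adjusted p = 0.0113 with edgeR). Without Ptch1Prrx1 replicate 1 it was 3.42 (adjusted p = 0.0052 with edgeR), and without control replicate 2 it was 4.09 and missed the test (adjusted p = 0.069 with edgeR).

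*Bbc3*, the Puma gene, rose from a low level. It had 9.74, 7.69 and 10.0 expected counts in control replicates 1, 2 and 3 and 34.7, 20.02 and 44.5 in Ptch1Prrx1 replicates 1, 2 and 3. The TPM values were 0.59, 0.42 and 0.63 in the controls and 1.91, 1.13 and 2.48 in the Ptch1Prrx1 samples. The groups did not overlap, the lowest Ptch1Prrx1 sample being 1.79 times the highest control. Here Ptch1Prrx1 replicate 3 was the highest, so the rise did not rest on replicate 1. The log2 fold change was 1.87 (SE 0.37, adjusted p = 0.0217 with edgeR), and 1.82 without Ptch1Prrx1 replicate 1 (adjusted p = 0.044 with edgeR). The test was missed when any 1 control sample was left out, with adjusted p from 0.0607 to 0.0999 in edgeR and log2 fold changes from 1.77 to 1.93. No control sample reached the filter of 0.489 CPM for *Bbc3*, and 2 did for *Pmaip1*, so both genes entered the test through their Ptch1Prrx1 samples.

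*Cdkn1a*, the arrest gene, did not separate the groups. The controls were at 326, 263 and 283 TPM and the Ptch1Prrx1 samples at 364, 310 and 378 TPM in replicates 1, 2 and 3. The groups overlapped, since control replicate 1 lay above Ptch1Prrx1 replicate 2. The log2 fold change was 0.31 (SE 0.12, adjusted p = 0.12 with edgeR), and its unadjusted 95% interval of 0.03 to 0.58 leaves out a doubling. It remained by far the most abundant of the 5 death, arrest and feedback genes, at 464 to 907 times the TPM of *Pmaip1* in control samples and 26.2 to 96.2 times in Ptch1Prrx1 samples.

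The feedback genes moved in opposite directions. *Mdm2*, the ligase that degrades p53, was at 52.6, 47.8 and 52.8 TPM in control and 65.8, 55.0 and 64.2 TPM in Ptch1Prrx1 replicates 1, 2 and 3. The groups did not overlap, and the gap was narrow, 1.04 times from the highest control to the lowest Ptch1Prrx1 sample. The log2 fold change was 0.34 (SE 0.09, adjusted p = 0.0433 with edgeR), just past the threshold. It missed under 8 of 15 alternatives, among them leaving out any control sample, Ptch1Prrx1 replicate 3 or Ptch1Prrx1 replicate 1 (0.27 without the last, adjusted p = 0.0715 with edgeR). *Ccng1*, which encodes cyclin G1, a partner of protein phosphatase 2A that acts on Mdm2, was at 61.0, 62.1 and 66.4 TPM in control and at 50.5, 51.7 and 52.2 TPM in Ptch1Prrx1 samples. All Ptch1Prrx1 values lay below all controls, with a log2 fold change of -0.25 (SE 0.06, adjusted p = 0.0324 with edgeR). It passed without Ptch1Prrx1 replicate 1 (adjusted p = 0.0392 with edgeR), and missed without any other single sample, at adjusted p from 0.0731 to 0.102.

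**Figure D2:**
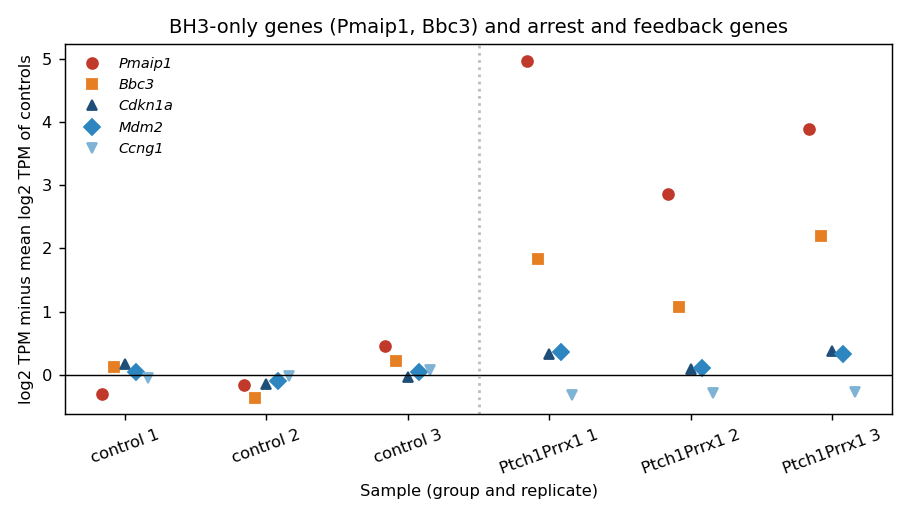
Log2 TPM of the BH3-only genes *Pmaip1* and *Bbc3* and of the arrest and feedback genes *Cdkn1a*, *Mdm2* and *Ccng1* in each sample, less the mean log2 TPM of the 3 control samples for the same gene. In all 3 Ptch1Prrx1 samples the BH3-only genes lie above the arrest and feedback genes, with mean log2 fold changes of 3.02 and 0.13.

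Set against each other, *Pmaip1* and *Bbc3* rose by more than *Cdkn1a*, *Mdm2* and *Ccng1* in every Ptch1Prrx1 sample. The mean log2 fold change was 3.02 for *Bbc3* and *Pmaip1* and 0.13 for *Cdkn1a*, *Mdm2* and *Ccng1*, a difference of 2.89. Within each sample, the mean log2 TPM of the death genes minus that of the arrest and feedback genes was -7.78, -7.81 and -7.33 in control replicates 1, 2 and 3. It was -4.37, -5.65 and -4.74 in Ptch1Prrx1 replicates 1, 2 and 3. The highest control lay below the lowest Ptch1Prrx1 sample, and the SD was 0.27 in control and 0.66 in Ptch1Prrx1 samples (n = 3 each). This contrast was set with earlier results of these data known, so no p is attached to it. It covers these genes only. Outside them the BH3-only gene *Bmf* fell, and the antiproliferative target *Btg2* and the G2 arrest target *Sfn* rose, as given below. Without Ptch1Prrx1 replicate 1 the difference was 2.54. The death genes still stood well below the arrest and feedback genes in absolute level, summing to 4.35 to 15.8 TPM against 416 to 494 TPM in Ptch1Prrx1 samples. Without Ptch1Prrx1 replicate 1 the death genes summed to 4.35 to 9.08 TPM.

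The remaining targets did not move as a block. *Trp53i11*, a p53-inducible gene of little-known function, was at 15.6, 14.2 and 15.1 TPM in control and 26.9, 28.9 and 29.6 TPM in Ptch1Prrx1 replicates 1, 2 and 3. The lowest Ptch1Prrx1 sample was 1.72 times the highest control, and the SD was 4.66% of the control mean and 4.80% of the Ptch1Prrx1 mean. The log2 fold change was 0.96 (SE 0.08, adjusted p = 0.00319 with edgeR), short of the fold change of 2 for a call, and it passed the test under all 15 alternatives. It was the one member that stayed past the test without control replicate 2 (adjusted p = 0.0288 with edgeR).

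*Trp53inp1*, which encodes a nuclear stress protein that promotes p53 phosphorylation and autophagy, fell. Control samples were at 8.95, 10.3 and 10.5 TPM and Ptch1Prrx1 samples at 6.31, 7.35 and 7.65 TPM in replicates 1, 2 and 3. The groups did not overlap, and the log2 fold change was -0.44 (SE 0.08, adjusted p = 0.0202 with edgeR). It missed the test without control replicate 2 or 3 (adjusted p = 0.0953 and 0.0607 with edgeR).

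*Perp*, which encodes a desmosomal membrane protein that stratified epithelia need for adhesion, is also a target of p63. It was at 2917, 2784 and 2973 TPM in control and 3467, 3208 and 3038 TPM in Ptch1Prrx1 samples. The groups were apart by 1.02 times in TPM and overlapped in normalized counts, and the log2 fold change of 0.21 did not pass (SE 0.10, adjusted p = 0.194 with edgeR, unadjusted 95% interval -0.03 to 0.44). *Zmat3*, an RNA-binding regulator of splicing and mRNA stability, was at 2.81, 3.71 and 4.07 TPM in control and 3.65, 3.50 and 3.44 TPM in Ptch1Prrx1 samples, and the latter lay within the control range. Its log2 fold change was 0.05 (SE 0.13, adjusted p = 0.834 with edgeR), and the interval of -0.27 to 0.36 leaves out a change as large as that of *Trp53i11*.

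**Figure D3:**
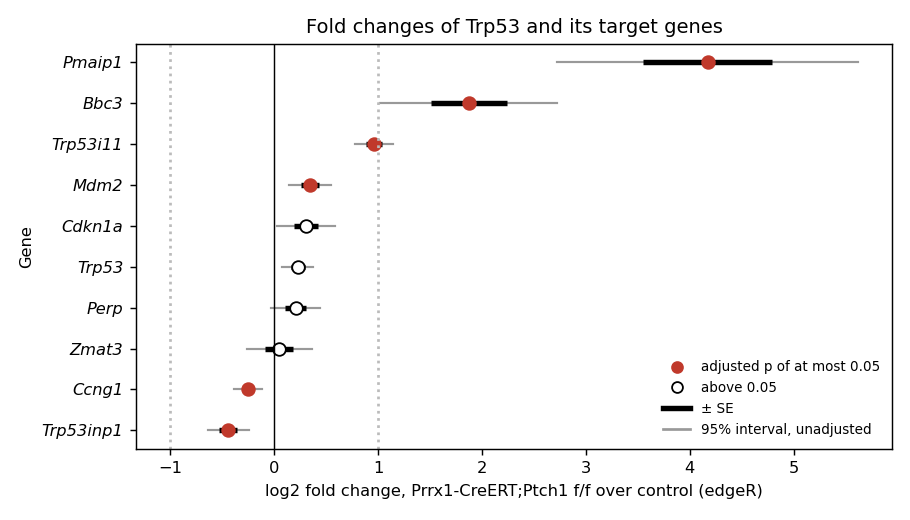
Log2 fold change (edgeR) of each member in Ptch1Prrx1 over control cells, with thick bars for the SE and thin bars for the unadjusted 95% interval, filled points for an adjusted p of at most 0.05 and dotted lines at a fold change of 2. *Pmaip1* (4.17) and *Bbc3* (1.87) lie beyond the dotted line, *Trp53i11* (0.96) lies just inside it, and *Trp53inp1* (-0.44) and *Ccng1* (-0.25) are filled points below 0.

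Reads that fit more than 1 gene are shared out by RSEM, and 6 members (*Mdm2*, *Ccng1*, *Bbc3*, *Pmaip1*, *Zmat3* and *Trp53i11*) had fractional expected counts in at least 1 sample, so some of their reads were shared with other sequences. *Trp53*, *Cdkn1a*, *Trp53inp1* and *Perp* had whole counts in every sample.

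Among 46 tested genes of a wider list of p53 targets, 6 were higher and 2 lower, where 7.61% and 6.41% of all tested genes were, and the median log2 fold change was 0.08. *Btg2*, an antiproliferative gene that is also an immediate early gene, was called (log2 fold change 1.59, adjusted p = 0.00263 with edgeR). *Btg2* was at 27.9, 27.5 and 24.3 TPM in control and 72.5, 87.3 and 73.4 TPM in Ptch1Prrx1 samples, well apart. *Plk2* (0.49), *Sfn* (0.77), *Thbs1* (0.98) and *Gtse1* (0.61) also rose and *Ephx1* (-0.80) and *Dcxr* (-0.65) fell. These 6 genes were named after their values were seen, and *Plk2* passed under 5 and *Gtse1* under 8 of 15 alternatives. *Sfn* encodes the epithelial 14-3-3 sigma, which holds cells in G2, and stood at 1909 ± 185 TPM in control and 3172 ± 260 TPM in Ptch1Prrx1 cells (SD, n = 3). Several damage-response targets did not pass. *Phlda3*, an inhibitor of Akt, had a log2 fold change of -0.02 (adjusted p = 0.891 with edgeR), the sestrin *Sesn2* 0.16 (adjusted p = 0.609), the death receptor *Fas* 0.24 (adjusted p = 0.689) and *Gadd45a* 0.51 (adjusted p = 0.0582).

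Of 24 genes that act on p53, such as its kinases, acetylases and ligases, 1 was higher and 1 lower, where 7.61% and 6.41% of all tested genes were. The acetylase *Crebbp* rose (log2 fold change 0.30, adjusted p = 0.0383 with edgeR) and *Ppp1r13b*, which encodes the p53 cofactor ASPP1, fell (-0.44, adjusted p = 0.0242), both named after their values were seen. Of 15 alternatives *Crebbp* passed in 6 and *Ppp1r13b* in 12. *Crebbp* missed the test when any 1 sample was left out, and *Ppp1r13b* when any 1 control sample was. *Mdm4*, the partner of Mdm2, was at 46.2 ± 6.02 TPM in control and 41.6 ± 7.01 TPM in Ptch1Prrx1 cells (SD, n = 3), with a log2 fold change of -0.11 (adjusted p = 0.521 with edgeR). *Cdkn2a*, whose ARF product blocks Mdm2, had a log2 fold change of -0.98 that did not pass (SE 0.39, adjusted p = 0.13 with edgeR).

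Of 16 tested members of the BCL2 family, 5 passed the test, where 14.0% of all tested genes did. There were 4 higher, namely *Pmaip1*, *Bbc3*, the pore-forming effector *Bak1* and the anti-apoptotic *Mcl1*, and 1 was lower, the BH3-only gene *Bmf*. Of these, *Pmaip1* and *Bbc3* entered the test through their Ptch1Prrx1 samples, as given above. *Bmf* was at 2.45, 4.37 and 3.72 TPM in control and 1.42, 1.64 and 1.96 TPM in Ptch1Prrx1 samples, with a log2 fold change of -1.02 (SE 0.22, adjusted p = 0.0262 with edgeR), and it passed under 11 of 15 alternatives, not without control replicate 2 or 3 or Ptch1Prrx1 replicate 2, nor without Ptch1Prrx1 replicate 1 (-0.95, adjusted p = 0.0567). *Mcl1*, whose protein Noxa binds, was at 150 ± 2.25 TPM in control and 203 ± 18.8 TPM in Ptch1Prrx1 cells (SD, n = 3; log2 fold change 0.48, adjusted p = 0.0256 with edgeR), and missed the test without any 1 control sample. *Bak1* rose by 0.38 (adjusted p = 0.0113), and was named after its value was seen. *Bax*, a p53 target and the effector partner of *Bak1*, had a log2 fold change of 0.15 (adjusted p = 0.421 with edgeR), *Bcl2l11* -0.31 (adjusted p = 0.0716), *Bcl2* -0.12 (adjusted p = 0.458) and *Bcl2l1* 0.15 (adjusted p = 0.253). Of 18 caspase and death receptor genes, *Tnfrsf1a* was higher (0.44) and *Birc2* lower (-0.34), where 7.61% and 6.41% of all tested genes were. Both were named after their values were seen, and 16 genes of the list did not pass. Of 15 alternatives *Tnfrsf1a* passed in 11 and *Birc2* in 9, and *Birc2* missed when any 1 sample was left out.

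**Figure D4:**
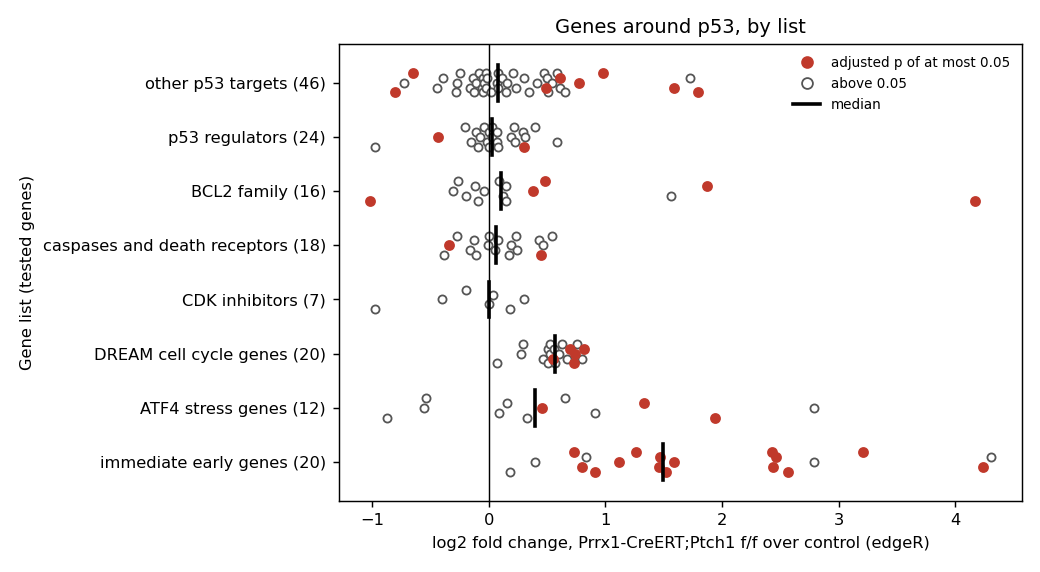
Log2 fold change (edgeR) of every tested gene in 8 lists around p53, with filled points for an adjusted p of at most 0.05, open points above it and a bar at each list's median. The medians of the p53 targets (0.08), regulators (0.03), BCL2 family (0.10), caspases (0.07) and CDK inhibitors (-0.001) lie near 0, and those of the cell cycle (0.56), ATF4 (0.39) and immediate early lists (1.49) lie above it.

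Of the 7 cyclin-dependent kinase inhibitors, 0 passed in edgeR, where 14.0% of all tested genes did. At an unadjusted p under 0.05 there were 3 (*Cdkn1a*, *Cdkn1b* and *Cdkn2a*), against 33.5% of all tested genes. In DESeq2 1 passed and in limma-voom 0. *Cdkn1b*, which encodes p27, had a log2 fold change of -0.40 (SE 0.12, adjusted p = 0.0706 with edgeR). Cell cycle genes that p53 lowers through p21 and the DREAM complex were higher where they passed. All 20 had a log2 fold change above 0, where 48.5% of all tested genes did, with a median of 0.56, and 5 passed higher, where 7.61% did (*Cdk1*, *Ccna2*, *Top2a*, *Mki67* and *Aurkb*, of which all but *Mki67* were named after their values were seen). *Mki67*, the proliferation marker, was at 34.2 ± 8.80 TPM in control and 55.4 ± 3.30 TPM in Ptch1Prrx1 cells (SD, n = 3; log2 fold change 0.73, adjusted p = 0.0241 with edgeR), while *Ccnb1* at 0.76 did not pass (adjusted p = 0.0567). Of 15 alternatives *Cdk1* passed in 14, *Mki67* in 11, *Top2a* in 10, *Ccna2* in 9 and *Aurkb* in 8. All 5 missed without control replicate 2, and all but *Cdk1* without control replicate 1 or Ptch1Prrx1 replicate 2 or 3.

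Immediate early genes, which transiently follow many stimuli, were also higher. Of 20 on that list, *Btg2* of the p53 targets included, 15 were higher and 12 were called higher, where 7.61% and 2.34% of all tested genes were. Among those called were *Nr4a1* (log2 fold change 3.21), *Jun* (2.47), *Fosb* (2.57), *Dusp1* (2.43) and *Zfp36* (1.47). Summed over the list, the 20 genes were at 2633 to 3034 TPM in control and 4831 to 5632 TPM in Ptch1Prrx1 samples, without overlap. Of 12 ATF4 stress genes, which include *Sesn2* and *Ddit4* of the p53 targets, 3 were higher and 0 lower, where 7.61% and 6.41% of all tested genes were. The 3 were *Nupr1* (1.94), *Ppp1r15a* (1.33) and *Psat1* (0.46, named after its value was seen), and 9 did not pass. A log2 fold change above 0 was found for 9 of the 12, where 48.5% of all tested genes had one. Those below 0 were *Slc7a11* (-0.88, adjusted p = 0.0643 with edgeR), *Asns* (-0.55) and *Trib3* (-0.53). The sums over the list were 483 to 584 TPM in control and 670 to 995 TPM in Ptch1Prrx1 samples, the last in Ptch1Prrx1 replicate 1. Without that replicate the sums were 670 to 684 TPM, and *Nupr1* came to 1.43 and *Ppp1r15a* to 0.99, under the fold for a call, though both passed. *Ppp1r15a* missed the test without control replicate 2 or 3, and *Nupr1* missed it when any 1 control sample was left out. *Pmaip1* and *Bbc3* are known to respond to such stress factors as well as to p53. The part of these lists in the rise of the death genes was not tested.

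Outside the lists, genes with a pattern near that of *Bbc3* over the 6 samples included *D17H6S56E-5* and *Pdlim7*, which encodes an actin-associated protein. Their levels were higher, since genes needed a mean of at least 10 CPM and *Bbc3* was at 0.38 to 2.19 CPM. Their log2 CPM values, with 0.5 CPM added and each centred on its own mean, differed from those of *Bbc3* by a root mean square of 0.19 and 0.21. The median was 0.64 over 8861 genes. The added 0.5 CPM shrinks the change of a gene as low as *Bbc3*. The fitted log2 fold changes were 1.05 for *D17H6S56E-5* and 1.31 for *Pdlim7*, against 1.87 for *Bbc3*. For *Cdkn1a* the nearest were *Mxd1*, a Myc network repressor, *Cpeb2* and *Itpkc*, at 0.03, 0.03 and 0.04 against a median of 0.24. With 6 samples, many genes share such a pattern.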

How the data were processed

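Corneal epithelial cells of 3 *Prrx1-CreERT;Ptch1 f/f* and 3 *Ptch1 f/f* samples were profiled by RNA-seq. The labels name an Illumina TruSeq kit, and the study's methods name rRNA depletion and BGI sequencing. The authors aligned reads with Bowtie2 2.2.5 and quantified genes with RSEM 1.2.12. The submitters' processing notes name the mm9 build. The authors deposited expected counts per gene, unscaled for depth, together with TPM values, which RSEM scales for length and depth, and FPKM values, which were not used. Every per-sample column belonged to 1 of the 6 samples.

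Expected counts were rounded and tested with edgeR 4.0.16 in R 4.3.3 (filterByExpr, TMM factors 0.960 to 1.03, quasi-likelihood test, Benjamini-Hochberg adjustment over all 12999 tested genes). SE was taken from the log2 fold change and its F statistic. Groups and replicate numbers came from the labels. Same-group samples differed by a chi-square per degree of freedom of 8.56 to 31.5, so none was taken as a repeat run of another. This does not show whether the samples came from separate animals. Fits were tested on simulated data.

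The members and gene lists were chosen with earlier results of these data known. Named genes were all members, called genes of the other lists (up to 6 per list) and a fixed set of family genes, plus the 3 genes nearest to *Bbc3* and *Cdkn1a* with a mean of at least 10 CPM. Genes of these lists that passed with a smaller change and the ATF4 stress genes below 0 were named after their values were seen. The same holds for *Krt12*, *Kera*, *Col1a2* and *Dcn* among the markers. Alternatives were DESeq2 1.42.0, limma-voom (limma 3.58.1), other factors and filters, a replicate block, limma on log2 TPM and each sample left out. Some genes that this rule selects are not reported here.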

Additional observations from a re-analysis of the deposited data

How the results depend on the processing

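Of the 10 members 6 passed the test, 4 higher and 2 lower, and 2 were called. Leaving out 1 sample gave 1 to 5 passing, 1 to 4 higher, 0 to 2 lower and 0 to 2 called. Requiring at least 10 counts in every sample removed *Bbc3* and *Pmaip1* by construction, leaving 2 higher and 0 called and no value for the difference between classes. With limma on log2(TPM + 1), 1 member was called, since *Bbc3* came to a log2 fold change of 0.85, and the difference between death genes and arrest and feedback genes was 1.56 against 2.89, since a pseudocount shrinks low genes. Under the other alternatives that difference was 2.503 to 2.905, and 2.54 to 3.16 with 1 sample left out. Of the wider target list 8 passed, 6 higher and 2 lower, and leaving out 1 sample gave 1 to 6, 1 to 6 higher and 0 to 2 lower. Of 148 member values under 15 alternatives, 127 kept their side of the threshold, 19 lost it, 2 gained it and 0 passed in the reverse direction. The log2 fold change of *Zmat3*, which never passed, changed sign. It came to -0.07 without control replicate 1 and -0.01 without Ptch1Prrx1 replicate 1. The values gained were *Trp53* with DESeq2 (adjusted p = 0.0445) and *Cdkn1a* with the replicate block (0.0367). The cause was not tested. Over all genes, 1822 passed, and 93 to 1325 with 1 sample left out, the lowest without control replicate 2.

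Deviations of same-numbered samples correlated at 0.13, 0.05 and 0.06 across genes, and not every sample correlated best with its own number, so the numbers were not taken to pair samples. With the replicate block in edgeR, 7 members passed, 5 higher and 2 lower, 2 were called, 11 wider targets passed, 9 higher and 2 lower, and the difference was 2.79.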
